A study of Mus musculus with 36 samples.

Results

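Pericentral hepatocytes surround the central vein of the liver lobule, and 10 genes used as their markers or as Wnt target genes were followed here out of 53715 gene identifiers in the count table. The genes were Glul, Cyp2e1, Oat, Axin2, Lgr5, Rnf43, Tbx3, Lect2, Slc1a2 and Rgn, taken by symbol. The livers came from 36 male C57BL/6 mice aged 10 weeks, and the labels name no transgene or drug. From 4 weeks of age until then, 12 mice ate the purified AIN93G diet alone (Control), 12 ate AIN93G with 10% red tomato powder (Red) and 12 ate AIN93G with 10% tangerine tomato powder (Tangerine). The labels give 11 to 12 mice per group, and each library carried its own mouse number. The comparisons asked how each powder, and the type of powder, related to the levels of these genes.

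The liver lobule is zoned along the flow of blood from the portal vein to the central vein. Endothelial cells of the central vein secrete Wnt ligands and R-spondin, which bind Frizzled and LGR receptors on the neighbouring hepatocytes and stabilize beta-catenin, so that TCF factors turn on the pericentral programme. That programme includes glutamine synthesis, detoxification by cytochrome P450 enzymes and feedback inhibitors of the pathway itself, whereas urea synthesis and gluconeogenesis are strongest near the portal vein.

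Total counts per library ranged from 21290169 to 33810573. Hepatocyte transcripts were abundant in every liver: the summed level of Alb, Ttr, Apoa1, Apoa2, Serpina1c and Fgb ranged from 88150 to 131900 CPM (counts scaled to library size). Of the 10 genes, 9 had at least 41 counts in every library and were tested. The other, Oat, was listed at 0 in all 36. In whole liver, fewer pericentral cells and less RNA per cell cannot be told apart. Levels between genes were compared per kilobase of merged exon in GENCODE M21. The counting program is not given in the sources used here. Whether reads outside exons were counted is therefore not known, and this scale makes no allowance for them. On that scale the order of the means over 36 livers was Cyp2e1 at 2702 ± 595 CPM per kilobase (SD), Rgn at 729 ± 98.1, Glul at 182 ± 25.5, Lect2 at 110.4 ± 16.9, Slc1a2 at 5.64 ± 1.18, Rnf43 at 3.88 ± 0.985, Tbx3 at 2.28 ± 0.790, Axin2 at 1.26 ± 0.383 and Lgr5 at 0.441 ± 0.101. The bands of mean ± SD overlapped between Slc1a2 and Rnf43, between Rnf43 and Tbx3, and between Tbx3 and Axin2, and the other neighbours in the order were separated by more than that.

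Oat encodes ornithine aminotransferase, which links ornithine to glutamate in pericentral cells. Its identifier had 0 counts in each of the 36 libraries, which by counting error alone allows 0.0887 to 0.141 CPM (3 counts per library). In GENCODE M21 (GRCm38) the gene lies on chromosome 7 from 132557478 to 132576398 on the minus strand, wholly inside the annotated span of Fgfr2 (130162451 to 133123350, same strand), although the exons do not overlap. All 29 protein-coding genes inside the Fgfr2 span were listed at 0, whereas the identifier of Fgfr2, a growth factor receptor, held 276442 counts over all libraries. Across the table, 445 of 446 protein-coding genes inside a longer gene on the same strand were listed at 0 (99.8%). So were 792 of 800 inside a longer gene on the opposite strand only (99.0%), against 2718 of 11931 genes that overlap no other (22.8%). A level of Oat can therefore not be read from this table, and its 0 is no measure of expression.

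**Figure D1:**
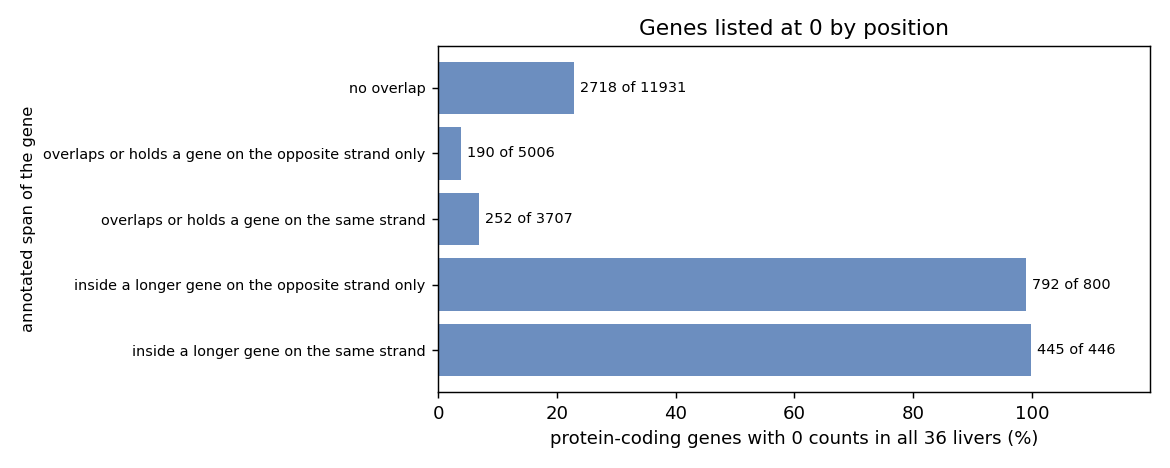
Share of protein-coding genes with 0 counts in all 36 livers (x axis, %), by how the annotated span of the gene lies against other genes in GENCODE M21 (y axis). The counts beside the bars give genes at 0 of all genes in the class. Genes inside a longer gene, such as Oat, sit at 99.0% and 99.8%, and the other classes at 22.8% or less.

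The row of Fgfr2 had means of 261 ± 88.5 CPM on Control, 271 ± 63.1 on Red and 314 ± 37.2 on Tangerine (SD, n = 12 each). Whether that row holds reads of Oat was not tested. For the other members, the genes inside their spans (Gm11670 in Axin2, A930009A15Rik in Lgr5, Gm25968 and 1110028F11Rik in Rnf43, Gm13872 in Slc1a2) were also listed at 0, so counts of these members may hold reads of those genes. Tbx3 overlaps the antisense gene Tbx3os1, which had 3453 counts against 14852 of Tbx3. Glul overlaps exons of Teddm2 on the opposite strand, which had 1286 counts against 592508 of Glul, and of the microRNA gene Mir8114 on its own strand, which was listed at 0. Cyp2e1, Lect2 and Rgn overlap no annotated gene.

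Lect2 was the member that differed between the tomato types. It encodes a protein that hepatocytes secrete into blood, first described as a chemotactic factor for leukocytes, and lies on chromosome 13 from 56542464 to 56548502 on the minus strand. Its level had a lowest, median and highest value of 82.6, 99.2 and 119 CPM on Control, 71.3, 91.8 and 108 CPM on Red and 98.0, 112 and 151 CPM on Tangerine. Every Tangerine liver lay above the Red median, 8 of 12 lay above the highest Red liver, and 11 of 12 Red livers lay below the lowest Tangerine liver. The groups overlapped only through Red 177, the highest Red liver. The mean was 89.5 ± 9.65 CPM (SD, n = 12) with red powder, against 115 ± 15.1 CPM (n = 12) with tangerine powder, and the log2 fold change of Tangerine against Red was 0.36 (SE 0.067, 95% interval 0.22 to 0.49, edgeR adjusted p 0.00564). It was also the member that passed the test for any difference among the 3 diets (edgeR adjusted p 0.0177), where 1.18% of all genes passed.

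Against Control, Lect2 had a log2 fold change of -0.16 on Red (SE 0.067, 95% interval -0.30 to -0.03, edgeR adjusted p 0.275) and of 0.19 on Tangerine (SE 0.067, 95% interval 0.06 to 0.33, edgeR adjusted p 0.608). Neither passed, and both use the same Control livers. The difference between the tomato types passed in each of 36 fits that left out 1 library, with log2 fold changes from 0.31 to 0.38 and adjusted p from 0.00499 to 0.0159. With the clock score as covariate, described below, the size was 0.34 (SE 0.083) but the edgeR adjusted p was 0.201, in a fit where 0 of 14068 genes passed and 1608 had an unadjusted p under 0.05.

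Markers of other cells were set beside this difference. Among the tested markers, 0 of 8 endothelial, 0 of 6 Kupffer cell, 0 of 6 stellate cell and 0 of 4 cholangiocyte genes passed between Tangerine and Red. Their summed levels spanned 121 to 149 CPM on Red and 67.6 to 146 CPM on Tangerine for endothelium, 142 to 258 and 99.8 to 215 CPM for Kupffer cells, 170 to 300.0 and 194 to 453 CPM for stellate cells, where Lrat was listed at 0, and 11.5 to 49.4 and 11.7 to 111 CPM for cholangiocytes. Tangerine 225, the liver with the highest Lect2, had the lowest endothelial sum on Tangerine, and without it the log2 fold change of Lect2 was 0.31 (edgeR adjusted p 0.00857). The part of these cells in the Lect2 difference was not tested. Of 6 tested hepatocyte markers 1 passed, where 1.71% of all genes did. It was Fgb, lower on Tangerine than on Red with a log2 fold change of -0.31 (edgeR adjusted p 0.032). With the mouse number as covariate its adjusted p was 0.0952, and with the clock score, described below, 0.409. Of 4 tested lymphocyte markers, Trbc2 and Lck were lower on Tangerine than on Red, and the summed level of that list was 116 CPM in Red 186 with a Red median of 2.60 CPM and a Tangerine range of 1.5 to 4.18 CPM. Adipose markers reached 30.5 CPM in Red 186 and pancreas markers 11.8 CPM in Tangerine 216. Without Red 186 and Tangerine 216, Lect2 kept a log2 fold change of 0.36 (edgeR adjusted p 0.0113), whereas Trbc2 had 0.20 (0.758) and Lck 0.12 (0.871).

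Promoter windows were read for the members on which the comparisons turn, Lect2 by its difference between diets, Cyp2e1 and Slc1a2 by their joint variation and Axin2 as a widely used Wnt target. The 250 bases before the RefSeq transcription start (GRCm38.p6) were searched on both strands for CTTTGAA and CTTTGAT, forms of the TCF binding motif that differ in the last letter and so cannot match at the same position of a strand. Windows were found for 7 of the 10 members. The windows of Slc1a2 and Rnf43 lie before RefSeq starts inside the GENCODE spans of these genes. The end of the Cyp2e1 window also lies inside the GENCODE span of its gene. Capitals mark a match, and sequences run 5′ to 3′ on the strand of the gene.
Lect2, chr13:56548539-56548788, minus strand: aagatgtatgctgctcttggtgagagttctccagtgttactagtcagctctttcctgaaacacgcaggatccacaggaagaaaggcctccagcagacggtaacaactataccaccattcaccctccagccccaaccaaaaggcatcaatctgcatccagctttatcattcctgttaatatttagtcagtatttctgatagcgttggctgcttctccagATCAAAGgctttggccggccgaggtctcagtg
Cyp2e1, chr7:140763569-140763818, plus strand: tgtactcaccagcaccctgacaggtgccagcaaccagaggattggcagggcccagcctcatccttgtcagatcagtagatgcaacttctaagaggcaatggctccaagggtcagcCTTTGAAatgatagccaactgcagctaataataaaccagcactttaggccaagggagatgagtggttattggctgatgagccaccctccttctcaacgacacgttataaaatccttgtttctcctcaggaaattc
Slc1a2, chr2:102706188-102706437, plus strand: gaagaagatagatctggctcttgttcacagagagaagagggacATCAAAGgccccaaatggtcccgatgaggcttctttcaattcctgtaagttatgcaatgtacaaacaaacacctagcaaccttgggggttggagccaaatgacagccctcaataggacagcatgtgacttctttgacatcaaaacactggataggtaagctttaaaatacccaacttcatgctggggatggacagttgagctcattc
Axin2, chr11:108920099-108920348, plus strand: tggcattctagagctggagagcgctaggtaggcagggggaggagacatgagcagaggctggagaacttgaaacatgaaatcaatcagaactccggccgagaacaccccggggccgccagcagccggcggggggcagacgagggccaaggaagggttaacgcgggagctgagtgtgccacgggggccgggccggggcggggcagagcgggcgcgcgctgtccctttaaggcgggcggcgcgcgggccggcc

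Each of Lect2, Cyp2e1 and Slc1a2 held 1 match, beginning 32, 135 and 207 bases before the start. No match was found in the windows of Glul, Oat, Axin2 or Rnf43, which says only that these letters are not there. Of 32851 windows of the same length, 7.48% held either form (CTTTGAA in 4.46% and CTTTGAT in 3.21%). The clock motifs CACGTG, TTACGTAA and TTATGTAA, present in 6.02%, 0.113% and 0.819% of windows, were found in no window of these members. A match is a description of the sequence and not a measured binding site.

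Red against Control asked how red tomato powder related to these genes. With the edgeR quasi-likelihood test 0 of 9 tested members passed, where 0.149% of all 14068 genes did, and 1 of 9 had an unadjusted p under 0.05, where 13.3% of all genes did. DESeq2 and limma-voom also called 0 members. The median log2 fold change of the 9 was -0.02, with -0.0047 over all genes tested. Tangerine against Control gave 0 of 9 as well, against 0.0142% of all genes, with 2 of 9 at an unadjusted p under 0.05 (5.47% of all genes) and 0 by DESeq2 or limma-voom. The median of the members was 0.11, with -0.012 over all genes. Between Tangerine and Red 1 of 9 passed, where 1.71% of all genes did in either direction, and 4 of 9 had an unadjusted p under 0.05, all higher on Tangerine (15.1% of all genes in either direction). The median was 0.13, with -0.0046 over all genes.

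**Figure D2:**
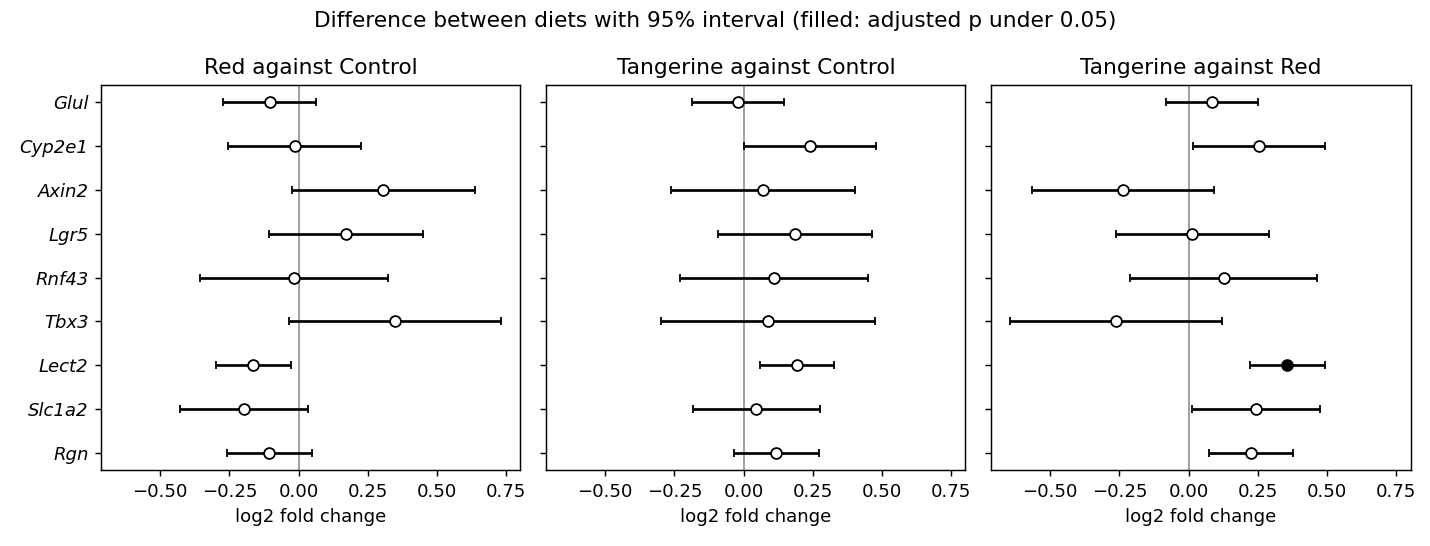
Log2 fold change (x axis) of the 9 tested members (y axis) for Red against Control, Tangerine against Control and Tangerine against Red. Points are edgeR estimates and bars their 95% intervals, and a filled point has an adjusted p under 0.05. The filled point is Lect2 at 0.36 between Tangerine and Red.

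Among the metabolic enzymes, Glul makes glutamine from glutamate and ammonia in the last hepatocytes before the central vein (chromosome 1, 153899944 to 153909723, plus strand). It ranged from 473 through a median of 655 to 753 CPM on Control, from 476 through 585 to 739 CPM on Red and from 492 through 639 to 721 CPM on Tangerine. The groups overlapped over nearly their whole range, but 1 of 12 Red livers lay above the Control median, against 6 of 12 Tangerine livers. Its log2 fold change was -0.10 on Red against Control (95% interval -0.27 to 0.06, edgeR adjusted p 0.614), -0.02 on Tangerine against Control (-0.19 to 0.15, adjusted p 0.9999) and 0.08 between Tangerine and Red (-0.08 to 0.25, adjusted p 0.667). Glns-ps1, a processed pseudogene of glutamine synthetase (chromosome 11, 19720355 to 19721472), had 45.1 ± 10.3, 45.1 ± 8.23 and 44.1 ± 8.89 CPM on the 3 diets. How reads shared by Glul and this copy were counted is not given in the sources used here, so the level of Glul is uncertain to that extent.

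Cyp2e1 is the cytochrome P450 that oxidizes ethanol and many small solvents (chromosome 7, 140763739 to 140774987, plus strand). It ranged from 3805 through a median of 5642 to 7524 CPM on Control, from 3796 through 5738 to 6727 CPM on Red and from 4709 through 6330 to 8643 CPM on Tangerine. Tangerine livers with mouse numbers 128 to 198 had 4709 to 6210 CPM, and those numbered 215 to 242 had 6451 to 8643 CPM. Mouse numbers went up to 204 on Red and up to 242 on Tangerine. On Control, the livers numbered 208, 240 and 245 had 5089, 5930 and 5918 CPM, within the range of the other Control livers. Whether Cyp2e1 follows the mouse number was not tested. The 5 highest Tangerine livers, numbered 215, 216, 217, 225 and 226, exceeded every Red liver, and the other 7 lay within the Red range. Of these, 215, 216, 217 and 225 had the 4 lowest Glul levels on Tangerine, and r of Glul with Cyp2e1 within diets was -0.71 on Tangerine, -0.25 on Control and 0.12 on Red (Pearson r over the 36 livers -0.36, adjusted permutation p 0.197). The log2 fold change was 0.25 between Tangerine and Red (95% interval 0.015 to 0.49, edgeR adjusted p 0.298), 0.24 on Tangerine against Control (7.2e-05 to 0.48, adjusted p 0.912) and -0.01 on Red against Control (-0.25 to 0.23, adjusted p 0.977). Rgn encodes regucalcin, a gluconolactonase that acts in vitamin C synthesis (chromosome X, 20549787 to 20562089, plus strand). Its levels were 830.2 to 1320 CPM on Control with a median of 1242, 814 to 1297 CPM on Red with a median of 1077, and 1103 to 1500 CPM on Tangerine with a median of 1251. All 12 Tangerine livers lay above the Red median, but with a log2 fold change of 0.22 (95% interval 0.07 to 0.38) Rgn did not pass (edgeR adjusted p 0.122; limma-voom with sample weights 0.0210).

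The transporter Slc1a2 takes glutamate into pericentral hepatocytes (chromosome 2, 102658659 to 102790784, plus strand). It ranged from 53.7 through a median of 74.0 to 101.4 CPM on Control, from 48.1 through 64.0 to 90.5 CPM on Red and from 59.6 through 77.3 to 103.6 CPM on Tangerine. Of the Tangerine livers 11 of 12 lay above the Red median, and 5 Red livers lay below the lowest Tangerine liver. The log2 fold change between them was 0.24 (95% interval 0.014 to 0.48, edgeR adjusted p 0.299), and against Control it was -0.20 on Red (-0.43 to 0.03) and 0.05 on Tangerine (-0.18 to 0.28).

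The feedback genes of the Wnt pathway were of low abundance. Axin2, a scaffold of the complex that degrades beta-catenin (chromosome 11, 108920349 to 108950783, plus strand), had a lowest, median and highest level of 4.43, 5.83 and 9.68 CPM on Control, 4.19, 7.80 and 10.9 CPM on Red and 4.64, 5.99 and 12.5 CPM on Tangerine. Of the Red livers 10 of 12 lay above the Control median, but 3 lay above the highest Control liver and 1 below the lowest, and the log2 fold change of 0.31 did not pass (95% interval -0.02 to 0.64, edgeR adjusted p 0.421). Tbx3, a T-box transcription factor (chromosome 5, 119670669 to 119684724, plus strand), had 8.22, 13.5 and 22.3 CPM on Control, 8.74, 16.1 and 26.8 CPM on Red and 8.51, 13.9 and 28.6 CPM on Tangerine. Here too 10 of 12 Red livers lay above the Control median, with a log2 fold change of 0.35 (95% interval -0.04 to 0.73, edgeR adjusted p 0.433). The highest Tbx3 on Red was in Red 186.

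Rnf43 encodes a membrane E3 ligase that removes Frizzled receptors (chromosome 11, 87662722 to 87735539, plus strand). It had the widest range of the 9 members, 5.48 times between Control 188 at 7.27 CPM and Control 240 at 39.8 CPM. Its medians were 26.2 CPM on Control, 26.1 CPM on Red (14.9 to 32.9) and 27.5 CPM on Tangerine (13.8 to 33.5), and its log2 fold change was -0.02 on Red (95% interval -0.36 to 0.32) and 0.11 on Tangerine (-0.23 to 0.45) against Control. Lgr5, a receptor for R-spondins (chromosome 10, 115450311 to 115587780, minus strand), ranged from 2.05 to 6.06 CPM on Control, from 2.99 to 5.94 on Red and from 3.26 to 6.38 on Tangerine, with medians of 4.43, 4.58 and 4.89 CPM. Its log2 fold change was 0.17 on Red (95% interval -0.11 to 0.45) and 0.18 on Tangerine (-0.09 to 0.46) against Control, and 0.01 between them (-0.26 to 0.29). Lgr5 and Rnf43 did not pass in any of the 3 comparisons.

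**Figure D3:**
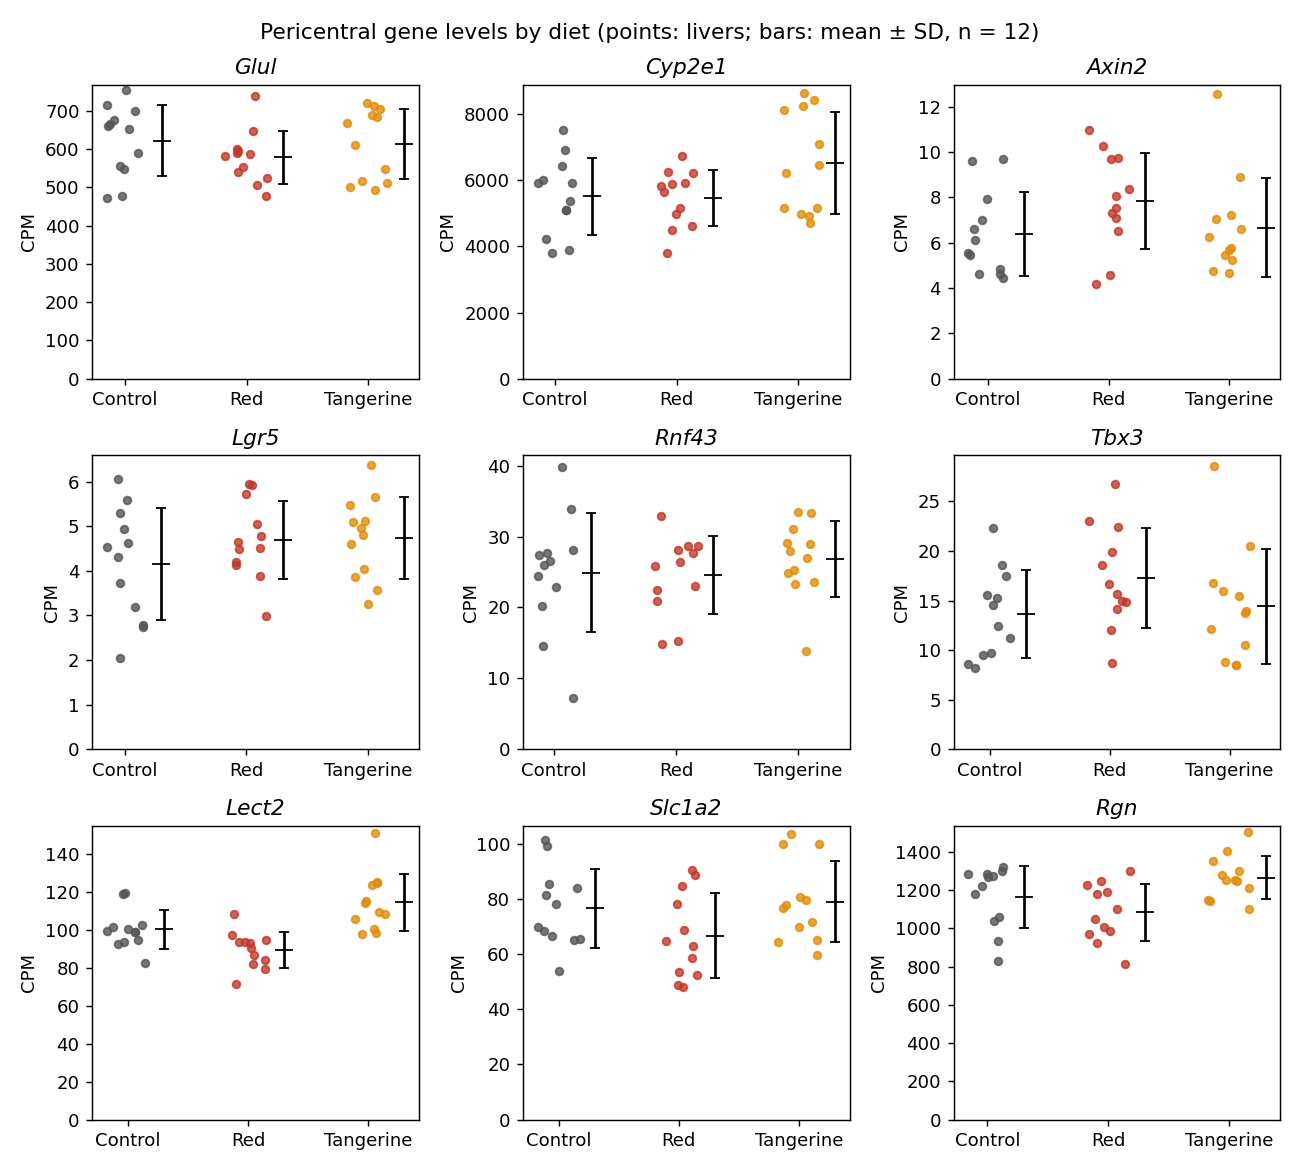
CPM (y axis, from 0) of the 9 tested members in each liver, by diet (x axis). Points are livers, and the bars beside them the mean ± SD (n = 12 each). Lect2 is the panel in which 11 of 12 Red livers lie below every Tangerine liver, and in the other panels the diets overlap more widely.

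Variation between livers of the same diet was then examined, to ask which members rise and fall together. After the mean of each diet was subtracted from log2 CPM, 4 of 36 pairs correlated over the 36 livers (two-sided permutation test within diets, Benjamini-Hochberg adjusted p under 0.05), all positively, and 8 had an unadjusted p under 0.05. The share of all gene pairs that correlate as strongly was not computed, so these counts have no background. Axin2 and Tbx3 had a Pearson r of 0.76 (permutation p 1e-05, the smallest 100000 resamples can give, adjusted 0.00018) and a Spearman rho of 0.71 (permutation p 1e-05). Within diets r was 0.69 on Control, 0.85 on Red and 0.76 on Tangerine, and it was 0.67 without the 2 livers farthest from the Axin2 median. Tangerine 226 was the highest liver of its diet for both genes and Red 157 the lowest of its diet for both.

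Rnf43 varied with both of these genes. It correlated with Tbx3 (r 0.61, permutation p 1e-05, adjusted 0.00018, and rho 0.64, permutation p 5e-05) and with Axin2 (r 0.58, permutation p 0.00017, adjusted 0.00204, and rho 0.60, permutation p 0.00023). Without the 2 livers farthest from the Rnf43 median, r with Tbx3 was 0.64. Without the 2 livers farthest from the Axin2 median, r with Axin2 was 0.54. Within diets r of Rnf43 with Tbx3 ran from 0.60 to 0.71 and with Axin2 from 0.54 to 0.74. Lgr5, which is also counted among Wnt targets, had r of -0.09 with Axin2, -0.19 with Tbx3 and -0.31 with Rnf43, with adjusted permutation p of 0.874, 0.497 and 0.390. Glul had r of 0.08 with Axin2 (adjusted permutation p 0.874) and 0.00 with Tbx3 (0.998).

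**Figure D4:**
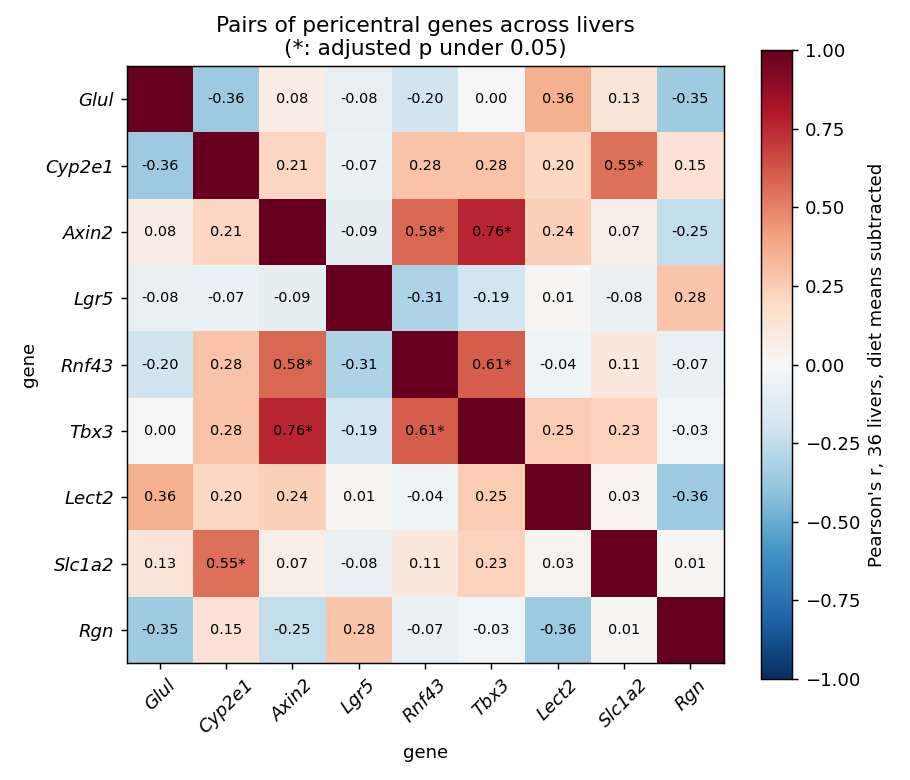
Pearson's r (colour and number) for each pair of the 9 tested members over 36 livers after subtracting the diet means. An asterisk marks an adjusted permutation p under 0.05. The marked cells are Axin2, Tbx3 and Rnf43 with each other and Cyp2e1 with Slc1a2.

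The remaining pair joined Cyp2e1 and Slc1a2 (r 0.55, permutation p 0.00061, adjusted 0.00549; rho 0.57, permutation p 0.00044). Within diets r was 0.37 on Control, 0.61 on Red and 0.71 on Tangerine, and it was 0.54 without the 2 livers farthest from the Cyp2e1 median. Both genes also followed the clock score, which was the first principal component of log2 CPM of 10 circadian clock genes, high where Dbp was high. Relations of the 9 members to this score were chosen after seeing the data and adjusted over the 9. The share of all genes tested that follow the score was not computed. Slc1a2 had r of 0.74 with the score (permutation p 1e-05, adjusted 9e-05; rho 0.79, permutation p 1e-05; 0.77 without the 2 farthest livers), with 0.73 on Control, 0.83 on Red and 0.66 on Tangerine. Cyp2e1 had r of 0.66 (permutation p 3e-05, adjusted 0.000135; rho 0.63, permutation p 4e-05; 0.58 without them), with 0.81, 0.39 and 0.71 on the 3 diets. The other 7 members had adjusted permutation p of at least 0.376 over the 36 livers, but for several of them r had opposite signs in different diets, which cancel in the pooled value. On Control, Red and Tangerine in turn, r was 0.66, -0.70 and 0.48 for Rnf43, 0.18, -0.64 and 0.25 for Axin2, 0.32, -0.53 and 0.44 for Tbx3 and -0.0028, 0.42 and -0.54 for Glul. For Lect2 it was 0.40, 0.03 and -0.37. The difference between diets in these relations was not tested. With the score regressed out at 1 slope common to the diets, the correlation of Cyp2e1 with Slc1a2 was 0.13 (adjusted permutation p 0.662), and with a slope for each diet, an alternative chosen after seeing the data, it was 0.21 (0.428). The pairs among Axin2, Tbx3 and Rnf43 had r of 0.61 to 0.78 with the common slope (adjusted permutation p 0.00036 to 0.0006). With a slope for each diet r was 0.73 for Axin2 with Tbx3 (adjusted permutation p 0.00036), 0.54 for Axin2 with Rnf43 (0.0155) and 0.53 for Rnf43 with Tbx3 (0.0155).

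**Figure D5:**
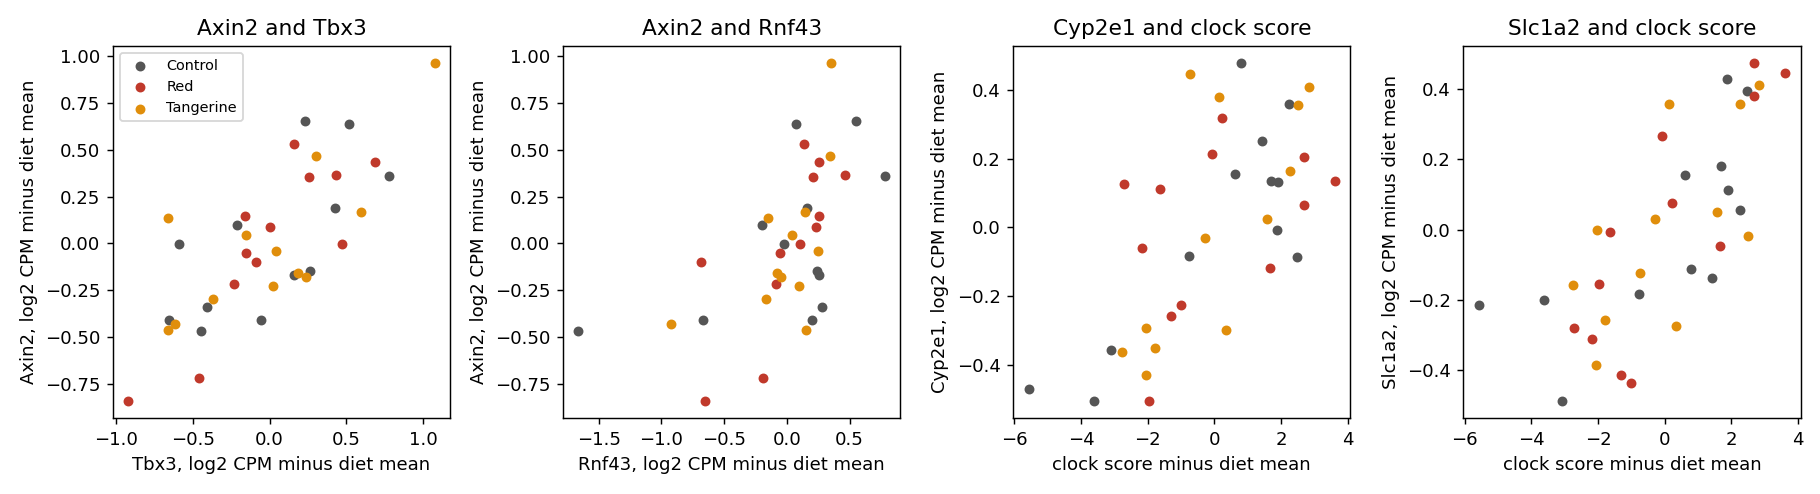
Log2 CPM of Axin2, Cyp2e1 and Slc1a2 (y axes) against log2 CPM of Tbx3 or Rnf43 or against the clock score (x axes), all after subtracting the diet mean. Each point is a liver, coloured by diet, and r over the 36 livers is 0.76 for Axin2 with Tbx3, 0.58 for Axin2 with Rnf43, 0.66 for Cyp2e1 and 0.74 for Slc1a2 with the clock score.

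The clock score differed between the diets, with a median of 1.93 on Control (-4.76 to 3.29), -2.92 on Red (-5.10 to 1.24) and 1.49 on Tangerine (-1.19 to 4.39). With the score as covariate the log2 fold change between Tangerine and Red moved from 0.25 to -0.10 for Cyp2e1 and from 0.24 to -0.11 for Slc1a2, and that of Red against Control from -0.01 to 0.28 for Cyp2e1 (edgeR adjusted p 0.441) and from -0.20 to 0.09 for Slc1a2, none of them past the threshold, while that of Lect2 was 0.34. Of the 10 clock genes 2 were called higher and 4 lower on Tangerine than on Red, where 1.71% of all genes passed, and 0 passed on either powder against Control by edgeR (9 on Red and 0 on Tangerine had an unadjusted p under 0.05). All 6 calls were lost without Red 186 and Tangerine 216 (edgeR adjusted p 0.0528 to 0.133) and with the mouse number as covariate (0.0528 to 0.12). The log2 fold change of Dbp between Tangerine and Red went from 1.84 to 1.62 and 1.56 in these fits. The score was unequal between the diets, with overlapping ranges, and the labels give no time of collection, so for Cyp2e1 and Slc1a2 diet and clock state cannot be told apart.

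The genes outside the list whose variation between livers was most like that of Glul were Glns-ps1 (r 0.92), Lhx6 (0.77), Aars (0.76), Gm5555 (0.75) and Alg3 (0.75), over 36 livers with diet means subtracted. Glns-ps1 may share reads with Glul, and Gm5555 is annotated as a processed pseudogene. For Axin2 they were Nfe2l2, which encodes the oxidative stress factor NRF2 (r 0.74), Bcl9, a co-activator of beta-catenin (0.67), Fkbp15 (0.65), 2900052L18Rik (0.63) and Nfrkb (0.62). These genes were chosen for their likeness, so no test is attached.

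The upstream parts of the Wnt pathway were taken from fixed lists. Among ligands and R-spondins 7 of 11 were tested and 0 passed in any of the 3 comparisons. The most abundant were Wnt5b at 5.41 CPM over all livers, with a log2 fold change of 0.13 between Tangerine and Red, and Wnt2 at 3.45 CPM, with -0.03. Rspo3, the R-spondin of the central vein, averaged 3.27 CPM with 0.08. Of the receptors 10 of 12 were tested and 0 passed, although 4 had an unadjusted p under 0.05 between Tangerine and Red, 3 higher and 1 lower. The co-receptors Lrp5 and Lrp6 were the most abundant, with -0.30 (edgeR adjusted p 0.127) and 0.10 (0.615). Of genes that control beta-catenin or bind TCF 11 of 13 were tested, of secreted inhibitors 3 of 8, and of other Wnt target and feedback genes 9 of 13, and 0 passed in each of these lists and comparisons. Between Tangerine and Red the unadjusted p was under 0.05 for 2 of the beta-catenin genes, 0 of the inhibitors and 2 of the other targets. Those 2 beta-catenin genes were lower on Tangerine and those 2 targets higher. Ctnnb1, Csnk1a1, Dkk3, Frzb, Ccnd1 and Cd44 are named here for their abundance in these lists. Among them, Cd44 had an unadjusted p under 0.05 and the others did not. Ctnnb1, which encodes beta-catenin itself, had a log2 fold change of -0.02, and Csnk1a1, a kinase that marks beta-catenin for degradation, 0.11. The inhibitors Dkk3 and Frzb had 0.02 and -0.05, and the target genes Ccnd1 and Cd44 0.32 each. Among those targets Nkd1, Notum and Znrf3, feedback inhibitors like Axin2, had log2 fold changes of -0.05, 0.04 and 0.07.

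Other genes of the pericentral zone did differ in part. Of 20 tested from a list of 22, 3 were higher on Tangerine than on Red and 0 lower, with a median log2 fold change of 0.07. Of all 14068 genes tested 103 were higher and 138 lower in that comparison (1.71% in all), which is the background also for the lists that follow. Cyp1a2, a P450 that oxidizes caffeine and aromatic amines, was higher by 0.44 (SE 0.095, edgeR adjusted p 0.0155). Gulo, the last enzyme of vitamin C synthesis and thus of the same pathway as Rgn, was also higher, at 580.5 ± 66.2 CPM with tangerine powder against 488 ± 49.1 CPM with red (SD, n = 12 each, log2 fold change 0.25, SE 0.060, edgeR adjusted p 0.0237). Cyp2a5, the mouse coumarin hydroxylase, was at 194 ± 79.4 CPM with tangerine powder against 96.1 ± 39.6 CPM with red (SD, n = 12 each, log2 fold change 1.02, SE 0.256, edgeR adjusted p 0.0309). When the fit included the clock score, the 3 fold changes were 0.28, 0.22 and 0.01 with edgeR adjusted p of 0.344, 0.272 and 0.986, and without Red 186 and Tangerine 216 the adjusted p of Cyp2a5 was 0.0948. With the mouse number as covariate the log2 fold changes of Cyp1a2, Gulo and Cyp2a5 were 0.38, 0.24 and 0.84 (edgeR adjusted p 0.0539, 0.0599 and 0.108). Against Control, Cyp2c29 was called higher on Red, as 1 of the 20, where 0.149% of all genes passed. Cyp2c29 and Cyp1a2 were called higher on Tangerine, as 2 of the 20, where 0.0142% passed, and no other gene was called there. This list and those that follow were chosen with earlier results of these data known, so these shares are no test of the zone. With the mouse number as covariate Cyp1a2 on Tangerine against Control had 0.48 in place of 0.54 (edgeR adjusted p 0.0838). Cyp2c29 had log2 fold changes of 0.81 on Red and 0.57 on Tangerine against Control (edgeR adjusted p 2.17e-06 and 0.00476). In the fit with the mouse number these were 0.81 and 0.59 (3.43e-06 and 0.0101). Between Tangerine and Red, Cyp2c29 lay the other way, at -0.24, and did not pass (edgeR adjusted p 0.199).

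Partner genes of Glul, Oat and Rgn were also read. In glutamine, ornithine and ammonia handling 15 of 16 genes were tested, and 3 were higher on Tangerine than on Red and 0 lower, with a median of 0.22. Slc38a3, the glutamine transporter of the hepatocyte membrane, was higher by 0.45 (SE 0.095, edgeR adjusted p 0.0146), Prodh, which starts proline breakdown, by 0.56 (SE 0.111, adjusted p 0.00909) and Arg1, the arginase of the urea cycle, by 0.31 (SE 0.075, adjusted p 0.0251). Arg1 was also lower on Red than on Control, with a log2 fold change of -0.38 (edgeR adjusted p 0.0167). A fit that included the clock score gave -0.24 (edgeR adjusted p 0.331). In vitamin C synthesis 2 of 4 genes were higher on Tangerine than on Red, Gulo and Ugp2 (0.35, edgeR adjusted p 0.0265). Between Tangerine and Red, with the clock score as covariate, Ugp2 had a log2 fold change of 0.34 and Prodh of 0.44 (edgeR adjusted p 0.263 and 0.251), whereas Slc38a3 had 0.15 and Arg1 0.13 (0.515 and 0.528). In the same comparison, without Red 186 and Tangerine 216 the edgeR adjusted p of Arg1 was 0.0967 (log2 fold change 0.25). With the mouse number as covariate Prodh had an edgeR adjusted p of 0.0383, while Slc38a3, Arg1 and Ugp2 had 0.0528, 0.0599 and 0.0624 at log2 fold changes of 0.40, 0.30 and 0.34.

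The opposite zone was set beside these results. Of 22 periportal genes, all tested, 3 were higher on Tangerine than on Red and 0 lower, with a median log2 fold change of 0.05. These were Arg1, Asl (0.37, edgeR adjusted p 0.0415) and Cps1 (0.40, adjusted p 0.0446), all urea cycle enzymes, and without Red 186 and Tangerine 216 the adjusted p of Asl was 0.141 and that of Cps1 0.112. With the mouse number as covariate the log2 fold changes of Asl and Cps1 were 0.36 and 0.39 (edgeR adjusted p 0.0825 and 0.0966), and with the clock score they were 0.17 and 0.20 (0.549 and 0.521). Both zones thus held 3 called genes between the tomato types outside the 10 members, all higher on Tangerine. Whether the zones differ in their response was not tested.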

How the data were processed

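Liver RNA was made into libraries with a directional RNA-seq kit, per the labels' protocols. The authors deposited raw read counts per Ensembl gene for 36 libraries, with no normalization. FastQC, Trimmomatic, edgeR and the build GRCm38.p6 are named in the submitters' processing notes, and the aligner, the counting program, the annotation and the strand setting are not given in the sources used here. Symbols, positions and exon lengths came from GENCODE M21, which named 53620 of 53715 identifiers.

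Genes were filtered with filterByExpr (14068 kept), normalized by TMM and tested with the robust quasi-likelihood F test of edgeR 4.0.16 on all 36 libraries without covariates, with Benjamini-Hochberg adjustment over all genes and a threshold of 0.05. CPM used the scaled library sizes, and log2 CPM a prior count of 2. Correlations used permutations within diets (numpy 2.4.6). Alternatives were DESeq2 1.42.0, limma 3.58.1 voom with sample weights, other scaling and filtering, covariates and left-out libraries. The test was also run on counts simulated independently for each gene, without variation shared between genes, and no result here rests on that run.

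The clock score held 84.2% of the variance of its genes, of which 10 of 11 were tested. No time, litter or batch is labelled, and each library was taken as 1 mouse. The members, lists and tests were chosen with earlier results of these data known. Named genes were the members, the 5 genes most like Glul and Axin2, and list genes past the threshold or among the most abundant of a list. Rspo3, Nkd1, Notum and Znrf3, and genes overlapping a member, were named after their values were seen. Floors and intervals of counts cover counting error only.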

Additional observations from a re-analysis of the deposited data

Results flagged for a closer look

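Lect2 differed between the tomato types in a direct test, with a log2 difference of 0.36 between tangerine and red powder. Neither powder passed against Control for Lect2, and with the clock score as covariate the edgeR adjusted p of the difference was 0.201.

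Markers of other tissues exceeded 3 times the highest Control liver in 5 cases, which lie outside the comparisons of the members. Lymphocyte markers summed to 116 CPM in Red 186, against at most 3.8 CPM in a Control liver. Adipose markers summed to 30.5 CPM in the same liver, against 6.17 CPM. Pancreas markers summed to 11.8 CPM in Tangerine 216 and to 0.363 CPM in Red 175, against 0.0756 CPM. Cholangiocyte markers summed to 111 CPM in Tangerine 192, against 30.3 CPM. In Red 186 Axin2 was at 10.2 CPM and Tbx3 at 26.8 CPM.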

How the results depend on the processing

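Of 216 values (27 member fold changes under 8 other settings), 214 kept their side of the threshold. Of these 216, 14 changed sign, none of them past the threshold: 7 with the clock score (Cyp2e1, Rnf43 and Slc1a2), 3 with the mouse number (Tangerine against Control: Axin2 -0.04, Tbx3 -0.09, Slc1a2 -0.02), 2 without Red 186 and Tangerine 216 (Cyp2e1, Glul) and 2 with limma-voom (Rnf43, Glul). The 2 that did not keep their side were Lect2 between Tangerine and Red with the clock score as covariate (0.34, adjusted p 0.201) and Rgn with limma-voom (0.24, adjusted p 0.0210). The number of members called between Tangerine and Red, and among the 3 diets, was therefore 0 with the clock score and 2 with limma-voom in place of 1, and it was 1 without each library in turn. Against Control it was 0 in all settings tried. Genes called in Red against Control went from 21 to 164 with DESeq2, 1504 with limma-voom, 3 with the clock score and 53 without Red 186 and Tangerine 216, and from 13 to 127 with 1 library left out (13 without Red 166, 127 without Control 189). In Tangerine against Control they went from 2 to 6 with DESeq2 and 1 with the mouse number as covariate, and from 2 to 4 with 1 library left out (4 without Tangerine 192). In Tangerine against Red they went from 241 to 391 with DESeq2, 746 with limma-voom, 0 with the clock score, 32 with the mouse number, 136 with no low-count filter and 86 without Red 186 and Tangerine 216, and from 89 to 301 with 1 library left out (89 without Tangerine 216, 301 without Control 137). Any difference among the 3 diets went from 166 to 383 with DESeq2, 1139 with limma-voom, 1 with the clock score, 73 with the mouse number and 77 without Red 186 and Tangerine 216, and from 59 to 237 with 1 library left out (59 without Red 202, 237 without Red 204). The cause of these changes was not tested. The number of correlated pairs was 3 with the clock score regressed out, with a common slope or a slope for each diet, and 4 in the other settings. Leaving out single libraries and the slope for each diet were chosen after seeing the data. No paired analysis was possible because no mouse number occurs in more than 1 diet. Lgr5, with as few as 41 counts in a library, was the member most limited by depth.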
